A study of Mus musculus with 6 samples.

Results

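The genes described here are 32 mouse genes of the endoplasmic reticulum (ER) that fold secreted and membrane proteins, send misfolded ones to degradation or sense their build-up. They came from a list of ER chaperone, degradation and sensor genes, with no expression filter. Earlier results of these data were known when the genes were chosen. Of the 32, 31 carried enough reads to be tested, among 17027 genes tested of 54018 with annotated transcripts in the files. Bulk RNA sequencing covered satellite cells, resident stem cells of skeletal muscle, sorted by fluorescence from the tibialis anterior and gastrocnemius of adult C57BL/6 mice 30 h after an injection of cardiotoxin, a venom toxin that kills muscle fibres. The 3 genotypes, with 2 libraries each, were Jmjd3 KO (knockout of Kdm6b), Utx KO (knockout of Kdm6a) and a control labelled Tdt control, which the series title calls wild-type. Kdm6b and Kdm6a encode histone demethylases that remove methyl groups from lysine 27 of histone H3. The Cre driver, the alleles and the animals behind each replicate are not stated in the labels used here, so p-values measure only the spread between these libraries.

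Proteins that enter the ER are held by the chaperone BiP, trimmed and re-glucosylated for the lectin chaperones calnexin and calreticulin, and cross-linked by protein disulfide isomerases. When unfolded protein accumulates, the sensors IRE1, PERK and ATF6 start the unfolded protein response: IRE1 splices the Xbp1 mRNA, PERK slows translation and raises ATF4, and ATF6 is cut to release a transcription factor. ATF6 and spliced XBP1 are known to act through the ER stress element, which reads CCAAT, then 9 bases, then CCACG, in the promoters of chaperone genes.

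Because several chaperone genes moved together, their promoters are shown first, with the ER stress element in capitals. The sequences are RefSeq windows on GRCm38.p6 that run from 250 bases before to 50 bases after each gene's start, and 26 of the 32 genes were in that table. The element, searched as exact matches on both strands, was found in 9 of these 26 (34.6%) and in 39 of all 32851 promoters (0.119%). The 9 were Hspa5, Hsp90b1, Dnajc3, Creld2, Calr, Canx, Pdia6, Syvn1 and Derl3, and searching the forward strand only found 6 of them, against 0.067% of all promoters. Of 108 other ER pathway genes in the table, 1 held it (Ero1lb). CCACG alone, which lies within the element, was in 22 of the 26 (84.6%) and in 32.8% of all promoters. It was also in 69 of the 108 other ER pathway genes. Each sequence is printed 5′ to 3′ on the strand of its gene, and an element in the reverse direction reads CGTGG first and ATTGG last. Hspa5 (chr2:34771840-34772089, plus strand) has 1 exact copy in the forward direction, with the first base 65 bases before the RefSeq start. The gene bounds given below are from another annotation, in which this copy (34772025 to 34772043) lies within the gene. Hsp90b1 (chr10:86705503-86705686, minus strand) holds 2 copies, the forward copy beginning 212 bases and the reverse copy 107 bases before the start. Creld2 (chr15:88819490-88819568, plus strand) has a reverse copy that begins 126 bases before the start. Pdia6 (chr12:17266461-17266539, plus strand) and Canx (chr11:50325770-50325848, minus strand) have forward copies that begin 98 and 145 bases before theirs. Calr (chr8:84847045-84847123, minus strand), shown because it holds the element and did not rise, has a reverse copy 162 bases before its start. Herpud1 (chr8:94386347-94386417, plus strand), shown because it moved in the other knockout, holds the short element instead, ATTGG followed after 1 base by CCACG, 52 bases before its start. That short element was in 12 of 32851 promoters (0.0365%) and in 2 of the 26 genes, Dnajb11 and Herpud1.
Hspa5: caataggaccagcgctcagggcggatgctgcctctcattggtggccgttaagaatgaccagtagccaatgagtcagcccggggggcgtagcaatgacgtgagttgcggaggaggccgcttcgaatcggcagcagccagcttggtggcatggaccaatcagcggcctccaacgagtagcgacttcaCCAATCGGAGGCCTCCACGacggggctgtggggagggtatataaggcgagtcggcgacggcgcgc
Hsp90b1: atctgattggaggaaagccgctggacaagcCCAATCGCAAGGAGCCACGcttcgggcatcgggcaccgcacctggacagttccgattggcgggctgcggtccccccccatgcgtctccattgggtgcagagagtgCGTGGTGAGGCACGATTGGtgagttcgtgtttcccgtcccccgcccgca
Creld2: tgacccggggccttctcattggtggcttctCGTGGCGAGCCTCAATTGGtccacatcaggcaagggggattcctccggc
Pdia6: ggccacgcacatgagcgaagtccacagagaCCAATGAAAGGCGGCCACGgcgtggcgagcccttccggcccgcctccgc
Canx: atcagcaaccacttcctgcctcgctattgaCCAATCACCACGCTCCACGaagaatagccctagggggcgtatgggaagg
Calr: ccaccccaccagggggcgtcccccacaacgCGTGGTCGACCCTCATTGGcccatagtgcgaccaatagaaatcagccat
Herpud1: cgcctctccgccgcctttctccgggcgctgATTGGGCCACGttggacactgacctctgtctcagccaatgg

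The libraries held from 53750675 to 77675388 estimated reads. Kdm6a stood at 7.70 and 7.40 CPM (reads scaled to the normalised library size) in Utx KO and at 32.9 and 34.0 CPM in the controls, a log2 fold change of -2.15 ± 0.06 (SE, adjusted p = 1.06e-05). Kdm6b was at 15.9 and 16.6 CPM in the Jmjd3 knockout and at 29.9 and 22.8 CPM in the controls (-0.70 ± 0.12, adjusted p = 0.0249). The satellite cell gene Pax7 lay between 135 and 149 CPM in all 6 libraries. Adjusted p-values here and below are from edgeR's quasi-likelihood test with Benjamini-Hochberg adjustment over all genes tested, and a gene was called changed when its adjusted p was under 0.05.

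Levels of different genes were compared in TPM, which corrects for transcript length and scales each library to the same total. BiP (Hspa5) was the most abundant of the 32, at 333 to 410 TPM over the 6 libraries, and the lectin chaperones calreticulin (Calr, 174 to 188 TPM) and calnexin (Canx, 151 to 173 TPM) and the disulfide isomerase P4hb (146 to 168 TPM) followed without clear separation between calnexin and P4hb. Hsp90b1, the ER member of the HSP90 family, lay at 117 to 154 TPM and Pdia3, the isomerase that works with the lectin chaperones, at 110 to 143 TPM. The sensors were far lower, with Ern1 (IRE1) at 3.53 to 4.36 TPM, Eif2ak3 (PERK) at 2.55 to 3.19 TPM and Atf6 at 10 to 11.5 TPM. Syvn1, the ubiquitin ligase of ER-associated degradation, was at 1.13 to 1.47 TPM. Its partner Derl3 was at 0.0318 to 0.134 TPM and was the gene too low to test. In bulk RNA, a different number of cells expressing a gene and a different amount per cell cannot be told apart.

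**Figure D1:**
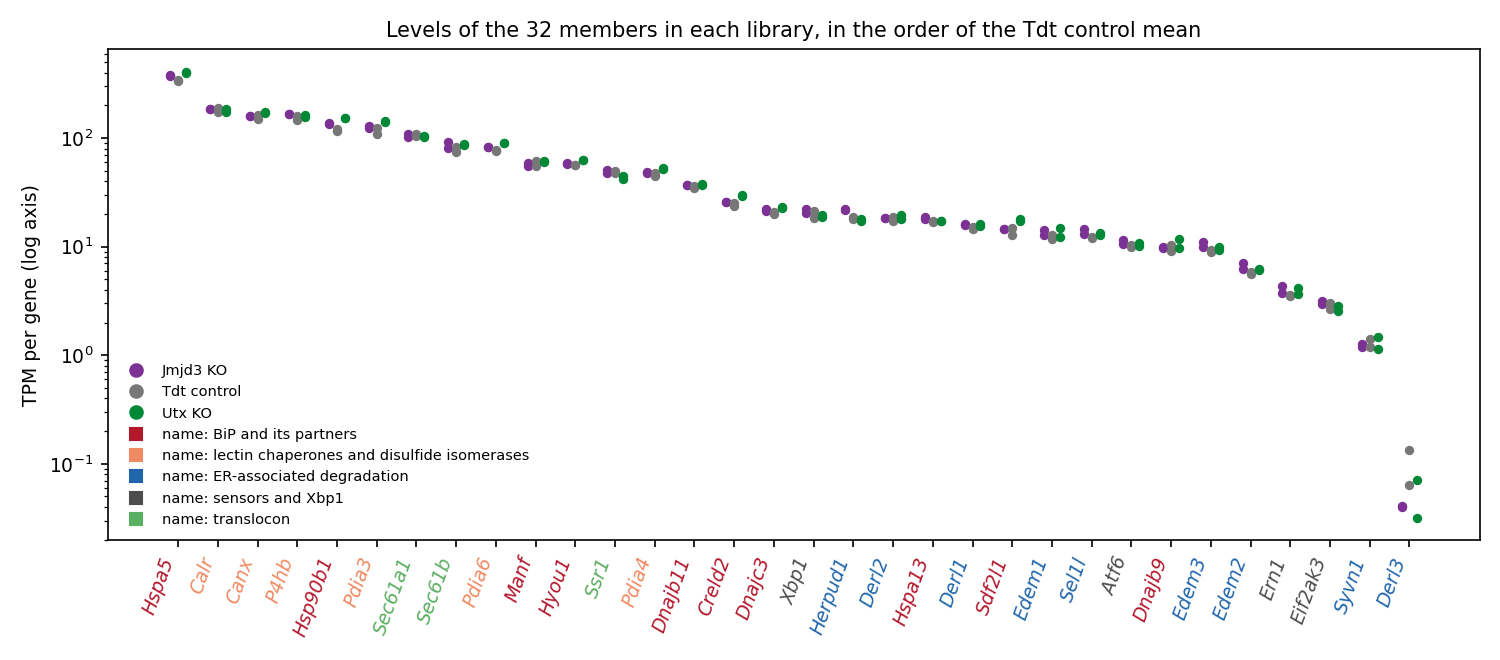
TPM per gene on a log axis for the 32 genes, 1 point per library (2 per genotype), ordered by the Tdt control mean, with names coloured by role. BiP (Hspa5) leads at 333 to 410 TPM, the sensors Ern1 and Eif2ak3 lie below 5 TPM, and Derl3 is lowest.

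In Utx KO, genes for ER chaperones and disulfide isomerases were higher than in Tdt control, by 17.1% to 30.1% where called. Of the 31 genes tested, 6 rose, namely Hspa5, Hsp90b1, Sdf2l1, Creld2, Pdia3 and Pdia6, against a background of 0.781% of all genes called higher. None fell, against a background of 0.916% called lower, and none was lower at an unadjusted p under 0.05 or by DESeq2. All 6 were among the 10 BiP-related genes (4 called) or the 6 lectin chaperones and isomerases (2 called), 16 genes that are called the folding genes below and that were put together with their values known. Of these 16, 15 had a log2 fold change above 0, with a median of 0.18. The 15 other genes tested had none called and a median of 0.05, and the median of all genes tested was 0.00. In CPM, both Utx KO libraries lay above both control libraries for 14 of the 16 folding genes and for 22 of all 31, against a background of 22.3%.

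BiP (Hspa5, ENSMUSG00000026864.13, chromosome 2, 34771970 to 34777547, GRCm38), the HSP70 of the ER lumen, stood at 1154 and 1154 CPM in the controls, 1354 and 1409 CPM in Utx KO, and 1234 and 1180 CPM in Jmjd3 KO. The Utx KO libraries were the highest of the 6, and the Jmjd3 KO libraries lay between them and the controls. The log2 fold change in Utx KO was 0.26 ± 0.04 (19.7% higher, adjusted p = 0.0264), and in Jmjd3 KO 0.06 ± 0.04 (adjusted p = 0.397). Hsp90b1 (ENSMUSG00000020048.13, chromosome 10, 86690209 to 86705509), also known as GRP94, folds integrins and Toll-like receptors among other clients. It stood at 530 and 551 CPM in the controls, 713 and 693 CPM in Utx KO, and 559 and 569 CPM in Jmjd3 KO, so the Utx KO libraries stood clear of the other 4. Its rise in Utx KO, of 0.38 ± 0.04 (30.1%, adjusted p = 0.0118), was the largest log2 fold change among the 31 genes in that comparison.

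Sdf2l1 (ENSMUSG00000022769.9, chromosome 16, 17130138 to 17132383) is a lumenal co-factor of BiP. Its level was 18.8 and 20.7 CPM in the controls, 24.9 and 24.7 CPM in Utx KO and 19.6 and 19.4 CPM in Jmjd3 KO, with the Utx KO pair above the rest. The rise in Utx KO was 0.33 ± 0.06 (adjusted p = 0.0482). Creld2 (ENSMUSG00000023272.4, chromosome 15, 88819646 to 88826683), an ER protein with isomerase-like motifs that is induced by ER stress, was at 54.2 and 54.4 CPM in the controls and at 64.5 CPM in both Utx KO libraries. In Jmjd3 KO it was at 53.7 and 53.8 CPM, so only the Utx KO pair stood apart, with a rise of 0.25 ± 0.05 over the controls (adjusted p = 0.0495). Hyou1, the large HSP70-like protein that exchanges nucleotide on BiP, was at 419 and 401 CPM in the controls, 446 and 454 CPM in Utx KO, and 398 and 401 CPM in Jmjd3 KO. The Utx KO pair was again highest, with a log2 fold change of 0.14 ± 0.04 (adjusted p = 0.174). The other 5 genes of this group are the co-chaperones Dnajb9, Dnajb11 and Dnajc3, the HSP70-like Hspa13 and the secreted stress protein Manf. Their log2 fold changes in Utx KO were 0.19 ± 0.11, 0.07 ± 0.05, 0.18 ± 0.05, 0.05 ± 0.05 and 0.05 ± 0.06, in that order, and none was called.

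Among the lectin chaperones and isomerases, Pdia3 (ENSMUSG00000027248.13, chromosome 2, 121413775 to 121438687) was at 345 and 379 CPM in the controls, 443 and 438 CPM in Utx KO, and 372 and 368 CPM in Jmjd3 KO. The rise in Utx KO was 0.28 ± 0.05 (adjusted p = 0.0469), while the 2 controls, the widest pair of this gene, enclosed both Jmjd3 KO libraries. Pdia6 (ENSMUSG00000020571.12, chromosome 12, 17266545 to 17284770), an isomerase that also binds IRE1 and PERK, was at 242 and 241 CPM in the controls, 281 and 284 CPM in Utx KO, and 244 and 245 CPM in Jmjd3 KO. It rose by 0.23 ± 0.04 in Utx KO (adjusted p = 0.0495). Pdia4, another isomerase, was at 185 and 189 CPM in the controls and 209 and 214 CPM in Utx KO (0.17 ± 0.05, adjusted p = 0.133), and at 186 and 181 CPM in Jmjd3 KO. Canx was at 690 and 733 CPM in the controls, 792 and 780 CPM in Utx KO, and 672 and 661 CPM in Jmjd3 KO, where the 3 genotypes did not overlap. Its log2 fold changes against Tdt control were 0.14 ± 0.04 in Utx KO (adjusted p = 0.155) and -0.09 ± 0.04 in Jmjd3 KO (adjusted p = 0.265). Calreticulin, the soluble relative of calnexin, had a log2 fold change of -0.01 ± 0.04 in Utx KO, with a 95% interval from -0.11 to 0.08, and P4hb had 0.06 ± 0.04.

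**Figure D2:**
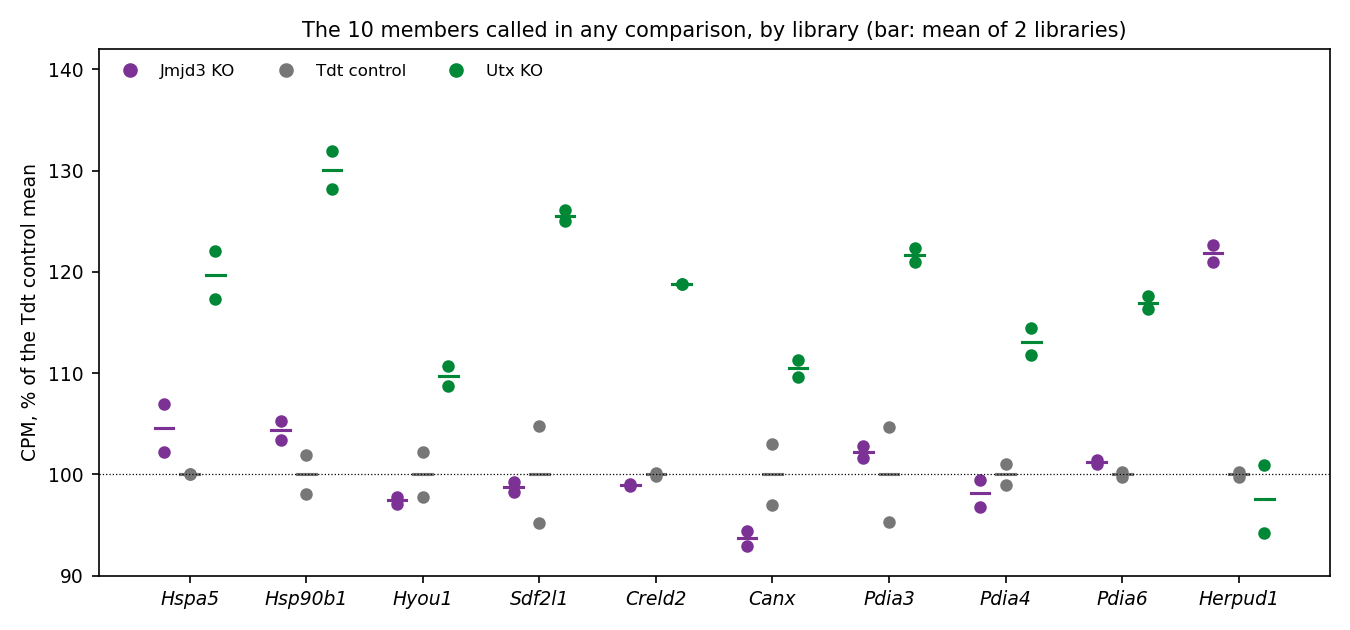
CPM of the 10 genes called in any comparison, as a percentage of the Tdt control mean, with 1 point per library and a bar at the mean of 2 libraries. The Utx KO points lie above both other genotypes for the first 9 genes, and the Jmjd3 KO points lie above them for Herpud1.

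Summed over the 16 folding genes, the level was 6173 and 6201 CPM in Utx KO, 5411 and 5530 CPM in the controls, and 5508 and 5405 CPM in Jmjd3 KO. The Utx KO mean was 13.1% above the control mean, and the Jmjd3 KO mean differed from it by -0.254%. For the other 16 genes the sums were 1274 and 1270 CPM in Utx KO, 1276 and 1288 CPM in the controls and 1263 and 1255 CPM in Jmjd3 KO. Summed TPM of the folding genes was 13.3% above the controls in Utx KO and 7.55% above in Jmjd3 KO, and that of the other 16 genes was 5.44% above in Jmjd3 KO, so levels in Jmjd3 KO lay higher on the TPM scale than on the CPM scale.

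The calls in Utx KO rested on all 6 libraries. The 6 genes called higher became 2 without Jmjd3 KO replicate 1, 1 without Jmjd3 KO replicate 2, 0 without Tdt control replicate 1, 1 without Tdt control replicate 2, and 0 without Utx KO replicate 1 or without Utx KO replicate 2. No called fold change turned its sign in these fits, and the adjusted p of Hsp90b1 ran from 2.8e-12 to 0.0908 over 14 alternatives. The authors' deposited table for Utx KO against Tdt control held 31 of the listed genes, with Derl3 but without Xbp1. Of these 31, 8 had an adjusted p under 0.05 there, all of them higher: Hspa5, Hsp90b1, Hyou1, Sdf2l1, Creld2, Pdia3, Pdia4 and Pdia6. The share of all genes under that threshold in the authors' table was not counted here, so these 8 have no background beside them. Their table belongs to the same series, so it is not an independent experiment, and how its p-values were computed is not stated. The log2 fold change of Hsp90b1 in the authors' deposited table was 0.35 ± 0.05 (SE), with an adjusted p of 8.6e-11.

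Of the 9 degradation genes, 8 were tested, and Herpud1 was the 1 gene called. Herpud1 (ENSMUSG00000031770.16, chromosome 8, 94386438 to 94395377) encodes a membrane protein that gathers the ER-associated degradation machinery. It was at 53.1 and 52.4 CPM in Jmjd3 KO, 43.4 and 43.2 CPM in the controls, and 40.8 and 43.7 CPM in Utx KO. The Jmjd3 KO pair was the highest, while the Utx KO pair overlapped the controls. Herpud1 rose by 0.29 ± 0.05 in Jmjd3 KO (21.9%, adjusted p = 0.0322) and differed by -0.04 ± 0.05 in Utx KO (adjusted p = 0.798). It was the 1 gene of the 31 called higher in Jmjd3 KO, against a background of 1.94%, and none was called lower, against a background of 1.02%, nor lower by DESeq2 or at an unadjusted p under 0.05. In Jmjd3 KO both libraries lay above both controls for 7 of the 31 genes, against a background of 26.2%.

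The call of Herpud1 in Jmjd3 KO was kept in 8 of 14 alternatives, with an adjusted p from 0.00144 to 0.205, and was lost when either Jmjd3 KO library or either control library was left out. It was also lost with offsets for transcript length. In the authors' deposited table for Jmjd3 KO against Tdt control, Herpud1 had a log2 fold change of 0.12 ± 0.07 (SE) and an adjusted p of 0.238. How the authors computed their fold changes is not stated, so its size may not be on the scale of the fold change found here. None of the 31 listed genes in that table, which lacks Xbp1, had an adjusted p under 0.05. The transcript make-up of Herpud1 differed between the libraries too. The longest annotated transcript of Herpud1 (1952 bases, protein-coding) made up 90.7% and 90.8% of the gene's TPM in Jmjd3 KO, 73% and 78.4% in the controls, and 81.3% and 84.2% in Utx KO. A Herpud1 transcript of 731 bases, annotated as a target of nonsense-mediated decay, was listed at 0 in both Jmjd3 KO libraries and made up 10.4% and 12.5% in the controls and 12.3% and 5.2% in Utx KO. Such shares are model estimates and were not tested.

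The other 7 degradation genes tested were not called in any comparison. They are the mannosidase-like Edem1, Edem2 and Edem3, which mark misfolded glycoproteins, the ligase Syvn1 with its adaptor Sel1l, and the retrotranslocation proteins Derl1 and Derl2. Their log2 fold changes ran from -0.24 (Syvn1, 4.89 to 6.71 CPM over the 6 libraries) to 0.12 (Edem1) in Utx KO and from -0.18 (Syvn1) to 0.11 (Edem2) in Jmjd3 KO. Over the 8 genes with Herpud1, 6 had a log2 fold change above 0 in Utx KO, with a median of 0.08.

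None of the sensors was called. Ern1 (IRE1) was at 29.6 and 28.9 CPM in the controls, 31 and 30.1 CPM in Utx KO, and 30.4 and 32.2 CPM in Jmjd3 KO. Eif2ak3 (PERK) was at 18.3 and 19.0 CPM in the controls, 16.5 and 17.8 CPM in Utx KO, and 18.0 and 19.5 CPM in Jmjd3 KO. Atf6 was at 101 and 94.4 CPM in the controls, 102 and 98 CPM in Utx KO, and 94.6 and 101 CPM in Jmjd3 KO. For Ern1 both knockout pairs lay just above the controls, for Eif2ak3 the Utx KO pair lay below them, and for Atf6 the groups overlapped. Xbp1, the transcription factor gene whose mRNA IRE1 splices, was at 49.1 and 56.4 CPM in the controls, 51.3 and 51.5 CPM in Utx KO, and 52.8 and 54.5 CPM in Jmjd3 KO, so the controls enclosed the other 4 libraries. The 95% interval of its log2 fold change ran from -0.20 to 0.12 in Utx KO and from -0.14 to 0.19 in Jmjd3 KO. None of these 4 genes had an unadjusted p under 0.05 in any comparison, and none was called in any of 14 alternatives.

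Splicing of Xbp1 by IRE1 could not be read from these files. The annotation holds 4 Xbp1 transcripts whose shortest intron is 300 bases, and none that lacks the much shorter stretch that IRE1 removes. The Xbp1 transcript of 2129 bases made up 85.7% to 92.5% of the gene's TPM. Phosphorylation of PERK and cleavage of ATF6 are not measured by RNA sequencing.

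The translocon genes Sec61a1 and Sec61b, subunits of the channel through which proteins enter the ER, and Ssr1, a subunit of the associated TRAP complex, were not called in any comparison. Their log2 fold changes in Utx KO were -0.05 ± 0.04, 0.12 ± 0.07 and -0.11 ± 0.05, in that order.

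**Figure D3:**
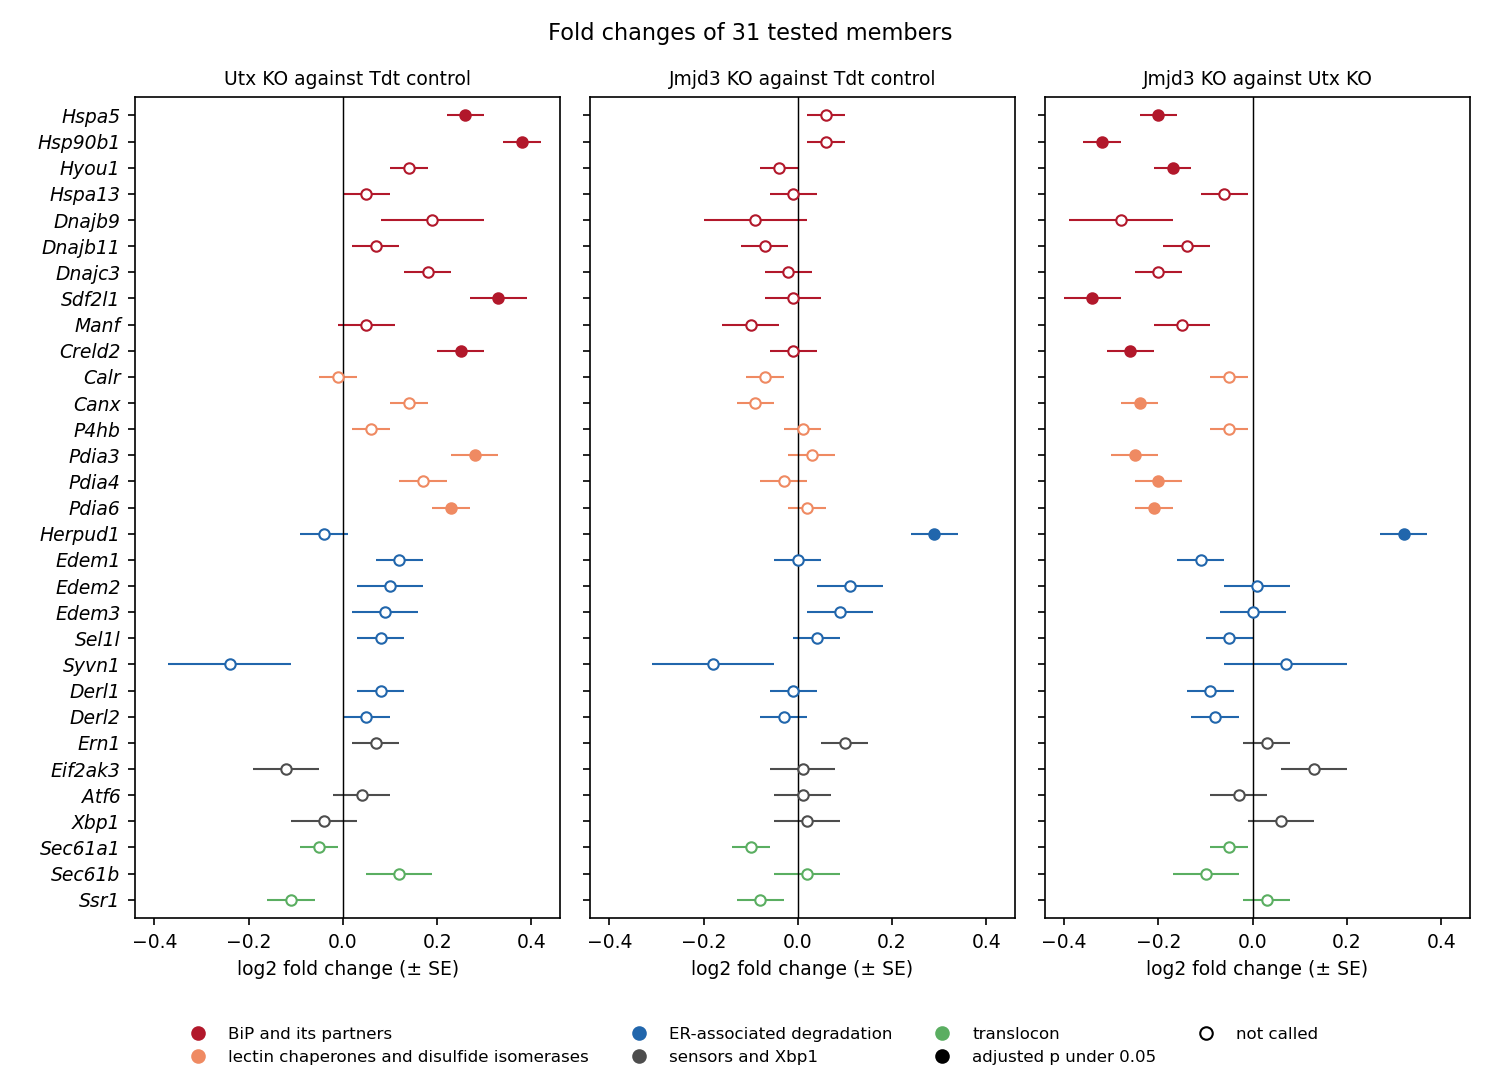
Log2 fold change ± SE of the 31 genes tested in the 3 comparisons, coloured by role, with filled points for an adjusted p under 0.05. In Utx KO against Tdt control 15 of the 16 chaperone and isomerase genes lie above 0, and in Jmjd3 KO against Utx KO all 16 lie below it.

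The 2 knockouts were also compared with each other. In Jmjd3 KO, 9 of the 31 genes were lower than in Utx KO, against a background of 2.87%, and 1 was higher, Herpud1, against a background of 5.08%. The 9 were Hspa5, Hsp90b1, Hyou1, Sdf2l1, Creld2, Canx, Pdia3, Pdia4 and Pdia6, all folding genes, and all 16 folding genes had a log2 fold change below 0, with a median of -0.20. This comparison tests the difference between the knockouts, and it uses the same Utx KO libraries as the comparison with Tdt control. Hsp90b1 was lower by -0.32 ± 0.04 (adjusted p = 0.00568), and it was called in all 14 alternatives, with an adjusted p up to 0.0493. Canx was lower by -0.24 ± 0.04 (adjusted p = 0.018), Sdf2l1 by -0.34 ± 0.06 (adjusted p = 0.0185) and Creld2 by -0.26 ± 0.05 (adjusted p = 0.0182). For Hspa5 the difference was -0.20 ± 0.04 (adjusted p = 0.0238), for Pdia3 -0.25 ± 0.05 (adjusted p = 0.0295) and for Pdia6 -0.21 ± 0.04 (adjusted p = 0.0274). Pdia4 (-0.20 ± 0.05, adjusted p = 0.0426) and Hyou1 (-0.17 ± 0.04, adjusted p = 0.0491) were nearest to the threshold. Herpud1 was higher by 0.32 ± 0.05 (adjusted p = 0.0131). The 9 became 1 when any single Jmjd3 KO or Utx KO library was left out, and the 1 higher became 0 without either Jmjd3 KO library or without Utx KO replicate 1.

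The genes with the ER stress element were set beside those without. Of the 9 with the element, 8 were tested, and 4 of them rose in Utx KO (Hspa5, Hsp90b1, Creld2 and Pdia6), against a background of 0.781%, with a median of 0.20 and a range from -0.24 (Syvn1) to 0.38 (Hsp90b1). Creld2 and Pdia6 lost their calls with offsets for transcript length, with only the 4 libraries compared and without any single library. Each was called in 5 of 14 alternatives, Hspa5 in 8 and Hsp90b1 in 11. All 4 lost their calls without Tdt control replicate 1 and without either Utx KO library. Of the 17 in the promoter table without it, 2 rose (Sdf2l1 and Pdia3), and the median of the 17 was 0.08. Sdf2l1 was called in 4 of 14 alternatives and Pdia3 in 5. Outside the list, 28 further genes had the element, of which 10 were tested, and none was called in Utx KO (median -0.05). Genes that rose and genes that were not called were thus found both with and without the element.

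A wider set of 133 ER pathway genes, listed by function, was tested in the same fit. In Utx KO 2 of 131 tested were called higher and none lower, against backgrounds of 0.781% and 0.916%. At an unadjusted p under 0.05, 17 were higher and 3 lower, against 1307 and 1446 of all 17027 genes tested. Of the 131, 95 had a log2 fold change above 0, with a median of 0.04, against 8423 of the 17027 genes tested. For 53, both Utx KO libraries lay above both controls, against a background of 22.3%. The 2 called were Serpinh1 and Ddit4. Serpinh1 is the collagen chaperone HSP47, of the 31 other ER folding enzymes tested, and averaged 704 CPM against 531 CPM in the controls (0.41 ± 0.05, adjusted p = 0.0186). Ddit4 is a stress-induced inhibitor of mTOR signalling, of the 12 genes of the PERK and ATF4 branch, and was at 59.0 CPM against 38.1 CPM (0.63 ± 0.07, adjusted p = 0.0156). Serpinh1 was called in 10 of 14 alternatives and lost its call when any Utx KO or control library was left out (adjusted p up to 0.0924). Ddit4 was called in 11 of 14 and lost its call without Tdt control replicate 1 and without either Utx KO library (up to 0.0799). In the same branch Atf4, its central transcription factor, had log2 fold changes of -0.02 ± 0.05 in Utx KO and -0.06 ± 0.05 in Jmjd3 KO, and the ATF4 target Ddit3, which encodes CHOP, averaged 2.14 CPM in Utx KO, 2.76 CPM in Jmjd3 KO and 2.64 CPM in the controls.

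In Jmjd3 KO 4 of the 131 were called higher and none lower, against backgrounds of 1.94% and 1.02%. At an unadjusted p under 0.05, 11 were higher and 6 lower, against 1870 and 1518 of all 17027 genes tested. The 4 called were Ddit4 (0.70 ± 0.07, adjusted p = 0.00448), Cebpb, a transcription factor of the stress and inflammatory responses (0.48 ± 0.08, adjusted p = 0.0268), the stress kinase gene Map3k5 (0.40 ± 0.07, adjusted p = 0.0339) and the co-chaperone Dnajb2 (0.34 ± 0.06, adjusted p = 0.0316). Ddit4 kept its call in all 14 alternatives and Cebpb in 10, losing it with length offsets and without Jmjd3 KO replicate 1, Tdt control replicate 1 or Utx KO replicate 2 (adjusted p up to 0.166). Map3k5 and Dnajb2 kept theirs in 8 of 14 and lost them with length offsets and without any single Jmjd3 KO or control library (adjusted p up to 0.355 and 0.228). Between the knockouts, 98 of the 131 had a log2 fold change below 0 in Jmjd3 KO against Utx KO, with a median of -0.06. Over all 17027 genes tested, 8477 were below 0. At an unadjusted p under 0.05, 28 of the 131 were lower and 9 higher, against 2025 and 2322 of the 17027. Jmjd3 KO was called lower than Utx KO for 5 of the 131, against a background of 2.87%, and higher for 1, against 5.08%. The 5 were Serpinh1 (-0.38 ± 0.05, adjusted p = 0.00741), the translation factor Eif2s1 (-0.30 ± 0.07, adjusted p = 0.0368), the translocon-associated Ssr3 (-0.29 ± 0.05, adjusted p = 0.022), the signal peptidase subunit Sec11a (-0.23 ± 0.05, adjusted p = 0.0297) and the oligosaccharyltransferase subunit Stt3b (-0.19 ± 0.05, adjusted p = 0.0488). Serpinh1 lost its call in 1 of 14 alternatives, without Jmjd3 KO replicate 2 (adjusted p = 0.0585). Eif2s1, Ssr3 and Sec11a lost theirs with length offsets and without any single Jmjd3 KO or Utx KO library (adjusted p up to 0.244, 0.15 and 0.571), and Stt3b kept its call in 6 of 14 (up to 0.262). Creb3l1, a transmembrane transcription factor, was higher by 0.67 ± 0.16 (adjusted p = 0.0452) but was called in 3 of 13 alternatives, and neither DESeq2 nor any fit that left out a library called it (adjusted p up to 0.226). No gene of the 21 other degradation genes or of the 24 ER export and retrieval genes was called in any comparison, while 1 to 4 of each list were under an unadjusted p of 0.05 in each. Over all 17027 genes tested, 1307 to 2322 were higher and 1446 to 2025 lower at that threshold, depending on the comparison.

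Markers of other cells differed between the groups as well. As backgrounds for the counts below, 0.781% of all genes were called higher and 0.916% lower in Utx KO, and 1.94% higher in Jmjd3 KO. Between the knockouts, 5.08% were called higher in Jmjd3 KO, and 8550 of 17027 genes were above 0. At an unadjusted p under 0.05, 1446 of 17027 genes were lower in Utx KO. Summed over 12 neutrophil markers, the level was 165 and 193 CPM in Utx KO. It was 246 and 187 CPM in Jmjd3 KO and 114 and 128 CPM in the controls. Of 11 tested, 1 was called higher in Utx KO and 5 in Jmjd3 KO, and 9 had a log2 fold change above 0 in each. The other 2, Ngp and Ltf, were below 0 in both knockouts and reached at most 0.533 CPM in any library. The 14 macrophage and monocyte markers summed to 221 and 260 CPM in Utx KO, 369 and 336 CPM in Jmjd3 KO, and 246 and 296 CPM in the controls, with none called in Utx KO, where 8 were lower at an unadjusted p under 0.05, and 2 called higher in Jmjd3 KO. The 11 mature fibre markers summed to 5066 and 5996 CPM in Utx KO, 7267 and 7697 CPM in Jmjd3 KO, and 5523 and 5823 CPM in the controls, and 1 was called lower in Utx KO and 3 higher in Jmjd3 KO. The 10 fibro-adipogenic and fibroblast markers, cells that secrete collagen, summed to 998 and 1178 CPM in Utx KO, 1195 and 1166 CPM in Jmjd3 KO, and 1013 and 989 CPM in the controls, with none called against the controls in either knockout. The sum in Utx KO was carried by Col3a1 (736 CPM against 645 CPM in the controls) and Gsn (217 CPM against 182 CPM), while the other 8 had log2 fold changes below 0 there, with a median of -0.28 over the 10 and 4 lower at an unadjusted p under 0.05 (Col1a1, Dcn, Lum and Pdgfra). The 9 endothelial markers summed to 49.8 and 44.0 CPM in Utx KO. Their sums were 49.7 and 62.3 CPM in Jmjd3 KO and 57.9 and 63.7 CPM in the controls. None of the 9 was called in any comparison. At an unadjusted p under 0.05, 5 were lower and none higher in Utx KO, where the median log2 fold change was -0.34. Between the knockouts, Jmjd3 KO was called higher than Utx KO for 8 of the 14 macrophage and monocyte markers, all 14 of which were above 0, and for 4 mature fibre, 3 fibro-adipogenic and 1 neutrophil marker. The part of these cells in the chaperone and Herpud1 results, against the controls or between the knockouts, was not tested.

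Plasma cells carry an extensive ER, and their defining genes were near 0: Jchain and Mzb1 reached at most 0.0466 CPM in any library, and 10 plasma and B cell markers summed to 0.494 to 1.02 CPM. Satellite cell markers summed to 4145 and 4183 CPM in Utx KO. The sums were 4303 and 4370 CPM in Jmjd3 KO and 4039 and 4073 CPM in the controls. Of these 12 markers, 9 had a log2 fold change above 0 in Utx KO, with a median of 0.23. The median was 0.02 in Jmjd3 KO. At an unadjusted p under 0.05, 7 were higher and 1 lower in Utx KO, against 1307 and 1446 of all 17027 genes tested. Among those 12, Myf5 (0.44 ± 0.05, adjusted p = 0.0156), Fgfr4 and Chodl were higher in Utx KO than in Tdt control, and Myod1 was lower (-0.22 ± 0.04, adjusted p = 0.0468), a factor of activated myoblasts. In Jmjd3 KO, Fgfr4 (0.50 ± 0.07, adjusted p = 0.0161) and Myod1 (-0.22 ± 0.04, adjusted p = 0.0339) changed in the same direction as in Utx KO, and Des rose (0.35 ± 0.04, adjusted p = 0.00448). Between the knockouts, Des was higher in Jmjd3 KO (0.38 ± 0.04, adjusted p = 0.0021). Lower in Jmjd3 KO were Myf5 (-0.50 ± 0.05, adjusted p = 0.00278), Cxcr4 (-0.39 ± 0.08, adjusted p = 0.0256) and Vcam1 (-0.24 ± 0.05, adjusted p = 0.0247). Whether the chaperone genes moved with these genes in the same cells was not tested.

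**Figure D4:**
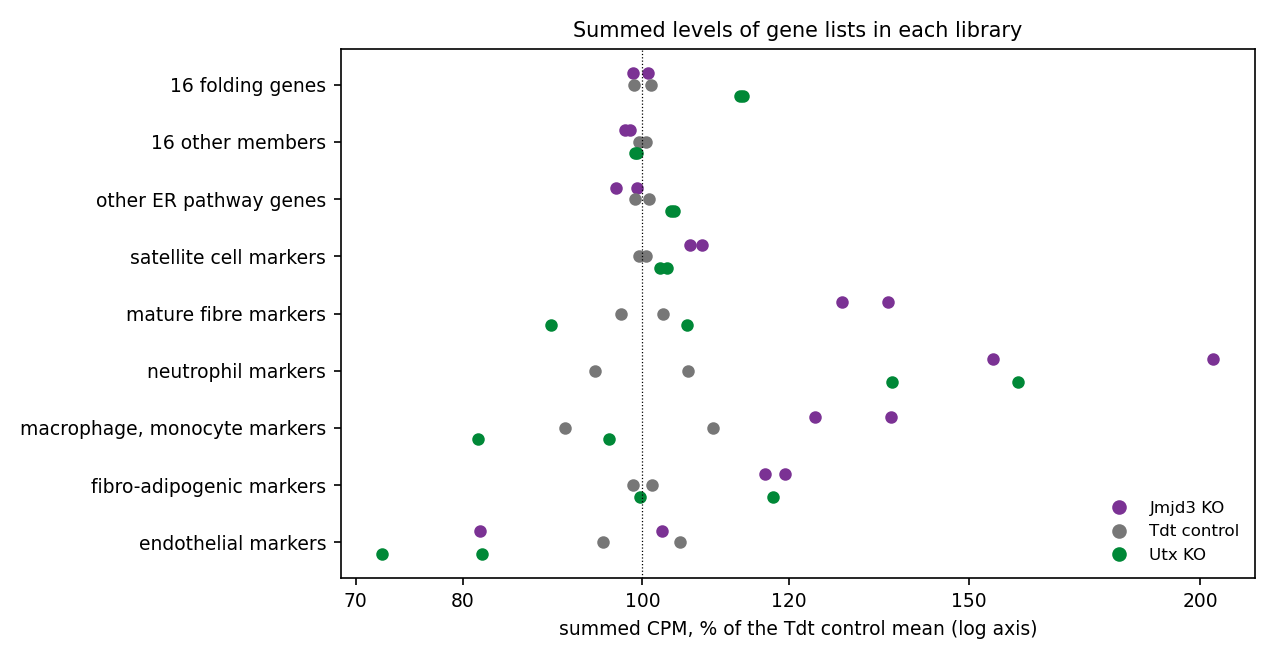
Summed CPM of each gene list in each library, as a percentage of the Tdt control mean on a log axis, with 1 point per library. Both Utx KO libraries lie above both controls for the 16 folding genes (chaperones and isomerases), other ER pathway genes, satellite cell markers and neutrophil markers. They lie below both controls for endothelial markers and, by little, for the 16 other genes. Satellite cell, neutrophil, macrophage, fibro-adipogenic and mature fibre markers lie above the controls in both Jmjd3 KO libraries.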

How the data were processed

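Per the submitters' processing notes, cutadapt 2.6, Salmon 1.1.0 and DESeq2 1.28.1 were used, in roles that are not stated, with the builds mm10 and GRCm38. The annotation release is not given in the sources used. Per the file headers, the deposited quantification files give TPM and estimated counts per transcript. For each knockout against the control, the authors deposited a table of log2 fold changes with their errors, raw and adjusted p-values, and the mean signal of each gene (normalised counts averaged over the libraries).

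GENCODE M21 (GRCm38) was used to add up estimated counts by gene, and held 139448 of 140748 transcripts in the files. Sums were rounded. Unmatched transcripts (0.38% to 0.422% of reads) were dropped, and so was a second gene model of Ddit3. Strandedness is not stated, so reads of overlapping genes, as for Hsp90b1, Manf, Syvn1 and Derl2, cannot be told apart. The quasi-likelihood test of edgeR 4.0.16, run in R 4.3.3, used TMM normalization, filterByExpr and a genotype term over the 6 libraries together. The common biological coefficient of variation was 0.0849, with 3 residual and 4.6 prior degrees of freedom. Intervals are 95% intervals on 7.6 degrees of freedom. An exact permutation of 2 against 2 libraries could not go below p = 0.333, so none was used. The test was checked on simulated counts.

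Alternatives were RLE size factors, no low-count filter, at least 5 CPM in 2 libraries, transcript length offsets, a replicate block, only the 4 libraries compared, DESeq2 1.42.0, each library left out, and, chosen after seeing the data, protein-coding genes only. Each of the 32 genes that was called in any comparison, and Hspa5, Xbp1, Ern1, Eif2ak3 and Atf6, was given per library. The others were given by range, and up to 4 genes per pathway list by fold change. Atf4, Ddit3 and single markers of cell types were named after their values were seen. The genes and lists were chosen with earlier results of these data known. Sequences are from RefSeq (GRCm38.p6).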

Additional observations from a re-analysis of the deposited data

How the results depend on the processing

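The 6 genes higher in Utx KO than in Tdt control became 2 with transcript length offsets, 1 with a replicate block, 2 with only the 4 libraries compared, and 0 to 2 with 1 library left out. Herpud1, the 1 gene higher in Jmjd3 KO, became 0 with length offsets, with the replicate block and without any of 4 libraries (0 to 1 over the 6). Between the knockouts, the 9 lower genes became 3 with the block and 1 to 8 with 1 library left out, and the 1 higher became 0 with length offsets and 0 to 1 with 1 library left out. Over all genes, 503 calls in Jmjd3 KO became 1870 with no low-count filter, 1034 with DESeq2, 321 with length offsets, 325 with the block and 108 to 424 with 1 library left out. In Utx KO, 289 became 1387, 656, 131 and 134 in that order, 118 with only 4 libraries and 17 to 92 with 1 left out. Between the knockouts, 1353 became 2839 with no filter, 784 with length offsets and 282 to 1369 with 1 left out. Among the other ER pathway genes, Map3k5 and Dnajb2 lost their calls in Jmjd3 KO against Tdt control with the block. So did Eif2s1, Ssr3, Sec11a, Stt3b and Creb3l1 in Jmjd3 KO against Utx KO. The cause of these changes in calls was not tested.

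Log2 fold changes of genes not called could turn their sign when 1 library was left out. Jmjd3 KO against Tdt control then gave -0.07 to 0.14 for Xbp1, -0.08 to 0.06 for Sdf2l1, -0.04 to 0.05 for Atf6, -0.03 to 0.11 for Pdia3 and -0.05 to 0.06 for Eif2ak3. Utx KO against Tdt control gave -0.14 to 0.07 for Xbp1, -0.002 to 0.08 for Atf6 and -0.09 to 0.01 for Herpud1. Between the knockouts the range was -0.01 to 0.07 for Ern1, which was -0.06 with length offsets, and -0.08 to 0.02 for Atf6. Deviations of same-numbered libraries correlated by 0.01, -0.00557 and -0.0378, so the replicate numbers were not taken to pair the libraries. Leaving out 1 library leaves a genotype with 1, which is then assumed to vary like the others. At these depths Derl3 was too low to test.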

Other observations

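Rn7s1, the RNA core of the signal recognition particle that brings ribosomes to the ER, took up 6.71% to 7.54% of the estimated reads in each library, with no gap between the genotypes. It was named after its values were seen. Within Edem1, a non-coding transcript of 368 bases was listed at 14.2% of the gene's TPM in the first Jmjd3 KO library, 14.1% in the first control and 9.56% in the first Utx KO library, and at 0 in the second library of each genotype, a split by replicate number that was noticed in the data and not tested. Within Pdia3, a nonsense-mediated decay transcript of 722 bases made up 17% and 15.2% of the TPM in Utx KO, 12.3% and 14.7% in the controls and 9.79% and 11.2% in Jmjd3 KO, which was not tested.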
